A study of Sus scrofa with 6 samples.

Results

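The kinesin motor genes were examined by RNA-seq of pig (Sus scrofa) oocytes arrested at metaphase II (MII). The family was taken by name, as all genes of the count files whose Ensembl symbol is KIF with a number and at most 1 letter, or KIFC with a number, which gave 39 of 25880 genes. By textbook role, 14 members were placed in a spindle class (chromosome movement, spindle poles, central spindle and cytokinesis) and 15 in a transport class (vesicles, organelles and cilia building), and the other 10 in neither. CENPE, a kinetochore kinesin whose symbol does not follow the naming rule, was treated as a partner. The study compared 3 libraries of untreated control oocytes with 3 libraries of oocytes matured in vitro with 1 mM malathion, an organophosphate insecticide dissolved in DMSO. Libraries are called C1, C2 and C3 (control) and M1, M2 and M3 (malathion) by their replicate numbers. All oocytes came from slaughterhouse ovaries, and no strain or age is stated. The labels do not say whether controls received DMSO, how many oocytes a library held or whether replicates were separate cultures, so a p-value reflects variation among these libraries, part of which may be technical.

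Kinesins walk along microtubules by hydrolysing ATP, most of them towards the plus end. In an oocyte they slide, focus and shorten the microtubules of the acentrosomal meiotic spindle, move and orient chromosomes, and build the central spindle from which the polar body is pinched off. Others carry organelles through the large cytoplasm. A fully grown oocyte transcribes little, so the mRNAs measured here are mainly stored maternal transcripts.

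Each library held between 25816040 and 42312341 counts over all genes. Levels are given in CPM, counts scaled to a common total of gene counts in every library, unless said to be TMM-normalised, which rescales a library by factors that ranged from 0.138 to 3.57. C3 and M3 stood apart from the other libraries: they detected 8344 and 8492 genes against 12211 to 14707 elsewhere. The 10 matched oocyte markers of a list of 12, among them GDF9, BMP15, ZP3 and BTG4, were present in all libraries as a group, but summed to 4189 and 4410 CPM in these 2 libraries against 28862 to 80957 CPM in the others. C2 had the lowest sum of these at 28862 CPM, but not every marker was low there. GDF9, ZP3 and FIGLA stood highest in C2, at 2650, 998 and 4.50 CPM, against at most 404, 417 and 1.80 CPM elsewhere. BTG4 was the largest part of the sum in each library but M3 (521 to 44538 CPM). ZP2 and MOS instead stood highest in M3, at 2158 and 1458 CPM against at most 594 and 388 CPM elsewhere, and FIGLA had 0 counts in C3. Because of these libraries, values are given per library and with and without them. In bulk RNA, fewer cells of a kind and less RNA per cell cannot be told apart.

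Kinesin transcripts made up 0.432%, 0.274% and 0.00854% of gene counts in C1, C2 and C3, and 0.380%, 0.454% and 0.0101% in M1, M2 and M3. Wilson 95% intervals of these shares were within ± 0.00250 percentage points and, like all intervals on counts here, cover the error of counting alone, because amplified copies of a molecule are not independent. The family summed to 4325, 2740.1 and 85.4 CPM in the control and to 3797, 4537 and 101 CPM in the malathion libraries. The sum was high in C1, M1 and M2, lower in C2 and lowest by far in both replicate 3 libraries, so the groups overlapped. Its mean was 2383 ± 2142 CPM (SD, n = 3) without and 2812 ± 2377 CPM (SD, n = 3) with malathion, a difference far smaller than the spread. Markers of cumulus and granulosa cells moved with the family, at 38.1 to 664 CPM in control and 68.0 to 737 CPM in malathion libraries (11 of 12 matched). VCAN at 14.1 to 424 CPM and KITLG at 15.8 to 244 CPM made up most of the marker sum in each library. Single markers departed from it. INHBA was at 0 counts in C2 and stood higher in M3 than in M1, at 11.2 against 5.15 CPM. CYP11A1 stood at 0.590 CPM in C2 and 0.713 CPM in C3. CYP11A1 and STAR stood highest in M2, at 81.6 and 24.99 CPM. AMH was at 0 counts in each library, PTX3 stayed at or below 0.252 CPM, FSHR at or below 0.540 CPM and HAS2 at or below 2.16 CPM. Their part in the kinesin levels was not tested.

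**Figure D1:**
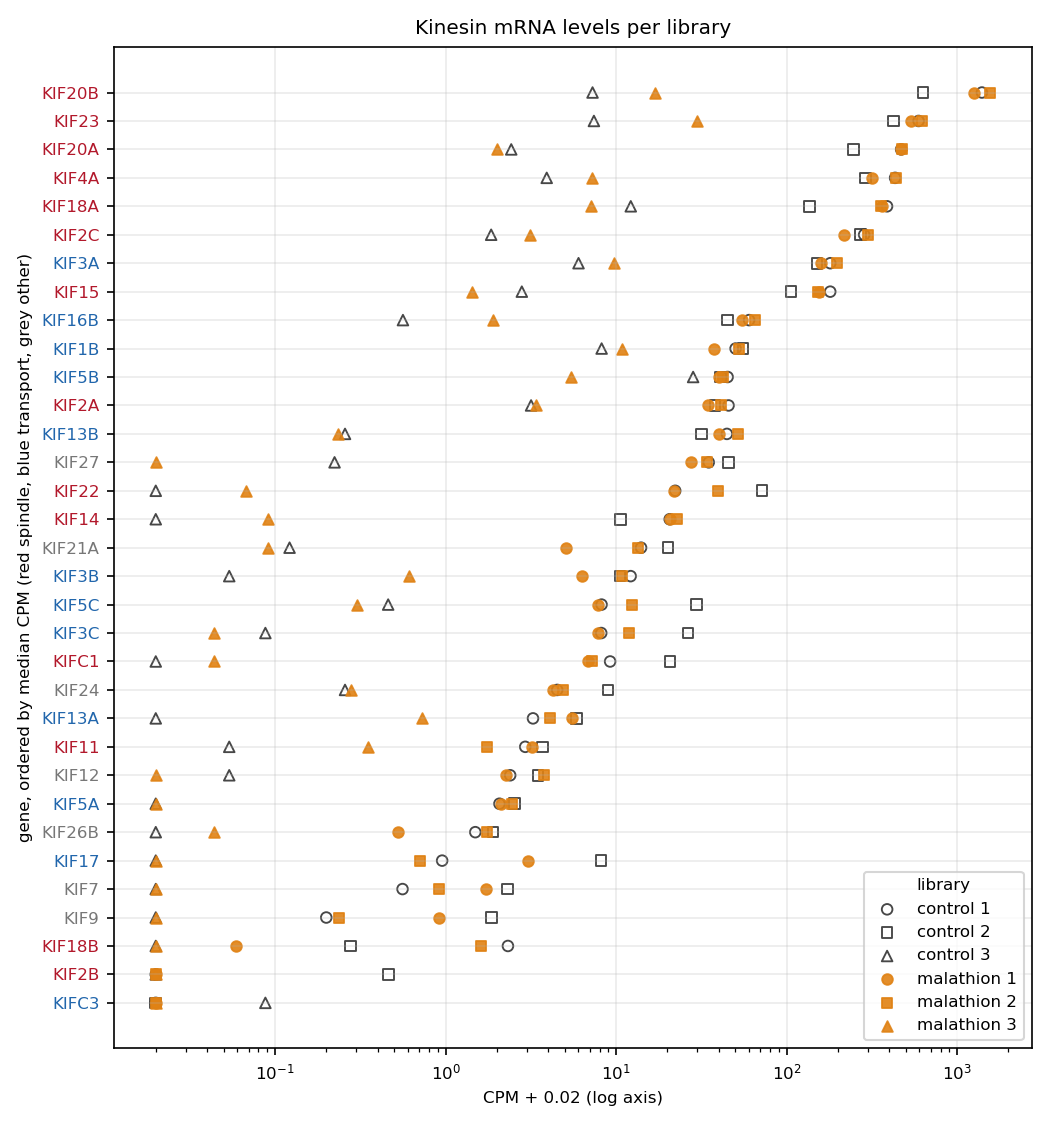
Level of each kinesin with at least 1 count (33 genes, vertical axis, ordered by median) in each of the 6 libraries, as CPM plus 0.02 on a log axis, so that a library with no counts appears at 0.02. Open symbols are control and filled symbols malathion libraries. Triangles (replicate 3) lie far to the left of the other symbols for most genes, and among genes with counts in all 6 libraries KIF5B in C3 is the triangle nearest to the other symbols.

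By median over libraries, motors of the central spindle drew the most reads. KIF20B (ENSSSCG00000010457), a motor of the central spindle and midbody that helps complete cytokinesis, stood at 1398, 629 and 7.26 CPM in C1, C2 and C3, and at 1249.6, 1565 and 16.8 CPM in M1, M2 and M3. KIF23 (ENSSSCG00000004969), the motor of the centralspindlin complex, stood at 594, 425 and 7.40 CPM in the control and at 536, 621 and 29.8 CPM in the malathion libraries. KIF20A (ENSSSCG00000014326), which brings the chromosomal passenger complex to the central spindle, stood at 469.7, 247 and 2.41 CPM in the control and at 466, 475 and 1.99 CPM in the malathion libraries. For each of these genes C1, M1 and M2 were close, C2 was lower and replicate 3 lowest, whatever the group. KIF14 (ENSSSCG00000010912), a midbody motor, drew fewer reads, at 10.6 to 22.7 CPM in the replicate 1 and 2 libraries, and had 0 and 3 counts in C3 and M3. CPM is not scaled to transcript length, which was not used here, so this order is one of reads and not of mRNA molecules.

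Chromosome-bound motors followed. KIF4A (ENSSSCG00000012377), a chromosome arm motor that also works with PRC1 at the spindle midzone, stood at 433, 289.9 and 3.90 CPM in the control and at 317, 439 and 7.26 CPM in the malathion libraries. KIF18A (ENSSSCG00000013332), which damps chromosome oscillations at the metaphase plate, stood at 388, 136 and 12.2 CPM in the control and at 363, 360.2 and 7.07 CPM in the malathion libraries. KIF2C (ENSSSCG00000003931), the centromeric microtubule depolymerase that removes faulty attachments, stood at 285, 270.2 and 1.83 CPM in the control and at 218, 300.2 and 3.12 CPM in the malathion libraries. All 3 were low in replicate 3 of both groups, and C2 was low for KIF18A but not for KIF2C. KIF22 (ENSSSCG00000029509), another chromosome arm motor, stood highest in C2, at 71.7 CPM against 21.8 to 39.4 CPM in C1, M1 and M2, and had 0 and 2 counts in the replicate 3 libraries.

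Among the motors that set up spindle poles, KIF15 and KIF2A drew more reads than KIF11 and KIFC1. KIF11 (ENSSSCG00000010471), the motor that pushes spindle poles apart, was at 2.91, 3.69 and 0.0339 CPM in the control and at 3.22, 1.73 and 0.331 CPM in the malathion libraries, which rests on 81, 100, 1, 83, 48 and 14 counts. KIF15 (ENSSSCG00000011309), which can share this task, stood at 180.3, 106 and 2.78 CPM in the control and at 154, 154 and 1.42 CPM in the malathion libraries. The read ratio of KIF15 to KIF11 cannot be turned into molecules without their lengths. KIFC1 (ENSSSCG00000001510), a minus-end motor that focuses spindle poles, stood at 9.21 and 20.7 CPM in C1 and C2 and at 6.86 and 7.24 CPM in M1 and M2. It had 0 counts in C3 and 1 count in M3. KIF2A, a depolymerase at spindle poles, ranged from 34.6 to 45.7 CPM in the replicate 1 and 2 libraries and stood at 3.16 and 3.36 CPM in the replicate 3 libraries. KIF18B had 64 counts in C1, 44 in M2 and 0 to 7 in the other 4 libraries, and KIF2B had 12 counts, all in C2.

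By median over libraries, KIF3A led the transport kinesins, below the 6 leading spindle motors, although in C3 the transport motor KIF5B drew more reads than any other member. KIF3A (ENSSSCG00000014283), a subunit of the motor that carries cargo along cilia and vesicles along microtubules, stood at 180.4, 151 and 6.01 CPM in the control and at 159, 196 and 9.67 CPM in the malathion libraries. Its usual partner subunit KIF3B ranged from 6.28 to 12.2 CPM in the replicate 1 and 2 libraries, and the alternative subunit KIF3C from 7.79 to 26.4 CPM. KIF5B (ENSSSCG00000011027), the widely used heavy chain of conventional kinesin, stood at 45.1, 41.1 and 28.3 CPM in the control and at 40.2, 42.1 and 5.44 CPM in the malathion libraries. Of the members at 1 CPM or more in C1, it was the least reduced in C3. KIF1B (ENSSSCG00000003401), a carrier of mitochondria and vesicles, stood at 50.2, 55.5 and 8.21 CPM in the control and at 37.6, 52.3 and 10.8 CPM in the malathion libraries. KIF16B (ENSSSCG00000007080), an early endosome motor, stood at 60.3, 45.2 and 0.543 CPM in the control and at 54.7, 65.4 and 1.87 CPM in the malathion libraries. KIF13B ranged from 31.6 to 52.2 CPM in the replicate 1 and 2 libraries, and its relative KIF13A (ENSSSCG00000020858) from 3.24 to 5.83 CPM. The heavy chains best known from neurons were low: KIF5C (ENSSSCG00000022919) at 7.82 to 29.6 CPM and KIF5A at 2.05 to 2.51 CPM in the replicate 1 and 2 libraries.

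Members of neither class drew few reads. KIF27, a relative of the Hedgehog pathway kinesin KIF7, led them with 27.5 to 45.7 CPM in the replicate 1 and 2 libraries, followed by KIF21A (ENSSSCG00000000779), a motor that restrains microtubule growth, at 14.0, 20.2 and 0.102 CPM in C1, C2 and C3 and at 5.04, 13.4 and 0.0709 CPM in M1, M2 and M3. KIF24, a centriole kinesin, ranged from 4.26 to 8.96 CPM in the replicate 1 and 2 libraries. KIF12, KIF26B, KIF7 and KIF9 did not exceed 3.745 CPM in any library. Of the whole family, 19 members had counts in each of the 6 libraries. No count was found in any library for 6 members, KIF1A, KIF1C, KIF19, KIF21B, KIF26A and KIFC2. A count of 0 allows up to 0.0709 to 0.116 CPM, depending on the library. KIFC3 had 2 counts, both in C3.

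Spindle kinesins held most kinesin reads in the replicate 1 and 2 libraries. Their share of the family's reads was 89.1%, 82.1% and 47.9% in C1, C2 and C3, and 89.3%, 88.8% and 70.4% in M1, M2 and M3. The Wilson 95% interval was 46.0% to 49.9% in C3, 69.0% to 71.8% in M3 and within ± 0.276 percentage points in the other libraries. Transport kinesins held 9.61%, 14.9% and 51.4% in C1, C2 and C3, and 9.58%, 9.93% and 29.2% in M1, M2 and M3. The spindle class drew 9.27, 5.52 and 0.933 times the reads of the transport class in the control libraries, and 9.32, 8.94 and 2.41 times in the malathion libraries. C3 was the library in which the classes were nearly even. The spindle share averaged 73.0% ± 22.0 (SD, n = 3) without and 82.8% ± 10.8 (SD, n = 3) with malathion, and its groups overlapped. The difference of 9.81 percentage points turned to −2.73 without C3, and it was 3.48 without both replicate 3 libraries.

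**Figure D2:**
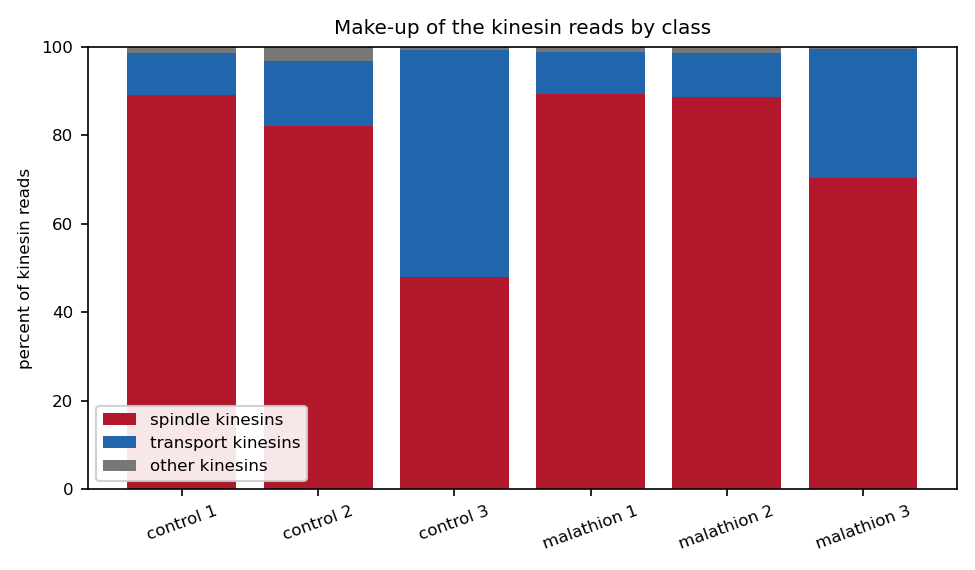
Percent of the kinesin reads of each library (vertical axis) that fell to spindle, transport and other kinesins, stacked, for the 3 control and 3 malathion libraries (horizontal axis). Spindle kinesins hold 82.1% to 89.3% in the replicate 1 and 2 libraries, 47.9% in C3 and 70.4% in M3.

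In CPM, nearly every member with counts was far lower in the replicate 3 libraries. Summed kinesin CPM was 50.6-fold lower in C3 than in C1, and 37.5-fold lower in M3 than in M1. The size of this drop depends on the scaling. After TMM normalisation it was smaller, with family sums of 1812, 767 and 607 in C1, C2 and C3. The TMM-normalised sums were 1683, 1697 and 732 in M1, M2 and M3. Among the 16 members at a mean of at least 10 CPM over C1 and M1, all 16 were lower in replicate 3 of both groups. Over all 5294 genes chosen in the same way, 90.2% were lower in C3 and 92.1% in M3. The median log2 ratio of replicate 3 to replicate 1 (CPM plus 1) was −5.05 for these kinesins and −3.83 for these genes in C3, and −4.64 and −3.71 in M3. The medians of the 10 spindle members were −5.87 and −5.38, and those of the 5 transport members −4.69 and −3.90. With 1 library on each side these ratios have no replicate check, and genes chosen for their level in replicate 1 tend to be lower elsewhere. The 1 CPM added to each value also limits how far a gene of low level can fall. KIF13B, on 7 counts in C3, was 188-fold lower there than in C1, yet its log2 ratio was −5.21. Of the family, 7 spindle members and 1 transport member had a median of at least 100 CPM. Whether the gaps between these medians depend on level was not tested.

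Single members departed widely from these medians. KIF20A was 195-fold lower in C3 than in C1 and 235-fold lower in M3 than in M1, the endosome motor KIF16B 111-fold and 29.3-fold, KIF1B 6.11-fold and 3.48-fold, and KIF2A 14.5-fold and 10.3-fold. KIF5B was 1.59-fold lower in the control but 7.40-fold lower in the malathion pair. With 834 counts, KIF5B held 33.1% of the kinesin reads of C3 (Wilson 95% interval 31.3% to 35.0%) against 0.928% to 1.06% in C1, M1 and M2. In M3 the leading member was KIF23, with 29.4% of the kinesin reads (28.1% to 30.8%), and KIF5B held 5.37%. KIF20B led the other 4 libraries with 23.0% to 34.5%. Over the 28 members at 1 CPM or more in C1, ranks correlated with that library at Spearman's rho of 0.806 and 0.809 for C3 and M3, against 0.959 to 0.988 for the other libraries, which is a description across genes.

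**Figure D3:**
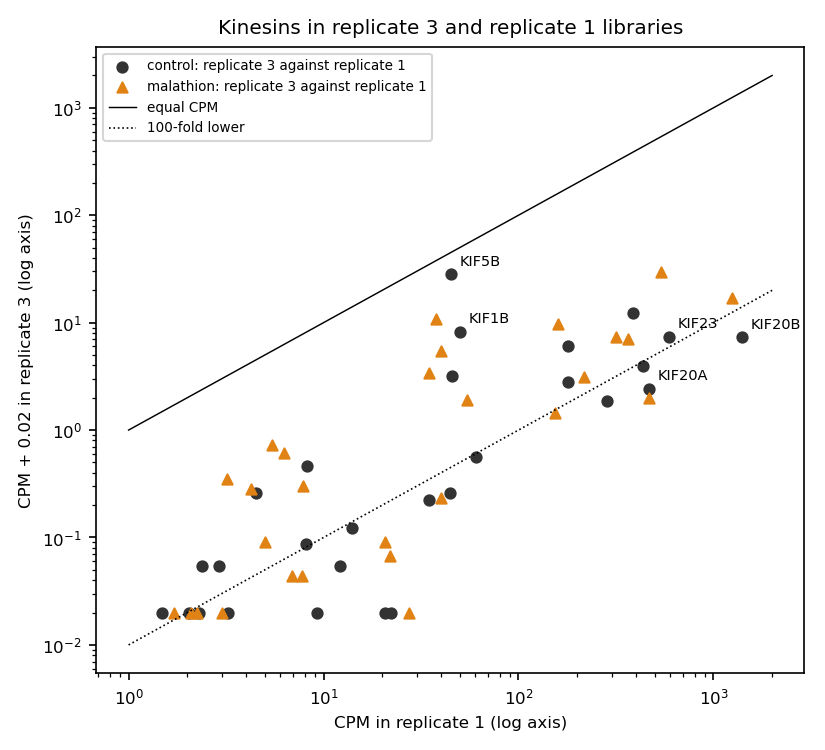
CPM of kinesins in replicate 1 (horizontal, log axis) against CPM plus 0.02 in replicate 3 (vertical, log axis), circles for control and triangles for malathion libraries, with members at 1 CPM or more in replicate 1. The solid line marks equal CPM and the dotted line a 100-fold lower CPM; KIF5B of the control (45.1 against 28.3 CPM) lies nearest to the solid line.

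C2 held its own make-up. Against C1, KIF18A was 2.86-fold lower, KIF20B 2.22-fold lower, KIF14 1.95-fold lower, KIF20A 1.90-fold lower and KIF15 1.70-fold lower. The chromosome motor KIF22 was 3.23-fold higher there, the heavy chain KIF5C 3.60-fold higher, KIF3C 3.23-fold higher and the pole motor KIFC1 2.25-fold higher. Among members with few reads, KIF9 was 10.3-fold higher (50 against 5 counts), the dendritic and ciliary motor KIF17 8.71-fold higher (221 against 26 counts), KIF7 4.24-fold higher (62 against 15 counts) and KIF18B 8.92-fold lower (7 against 64 counts). KIF17 had 78 and 19 counts in M1 and M2 and 0 in both replicate 3 libraries. KIF2C was only 1.05-fold lower and KIF1B 1.11-fold higher. Of the 16 members above, 13 were lower than in C1 (median log2 ratio −0.45), against 44.0% of the 5294 genes (median 0.18).

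The malathion libraries were then set against the control libraries. Within same-numbered libraries the 16 members gave no common direction. In replicates 1, 15 of 16 were lower after malathion, with a median log2 ratio of −0.16 and a range of −0.45 for KIF4A to 0.00172 for KIF14, and 59.0% of the 5294 genes were lower too (median −0.07). None of the 16 differed by over 2-fold there. In replicates 2, 13 of 16 were higher after malathion (median 0.53), from −0.85 for KIF22 to 1.40 for KIF18A, while the median of all genes was −0.05. C2, which stood below C1 for 13 of the 16, enters this ratio. In replicates 3, 10 of 16 were higher (median 0.08), from −2.19 for KIF5B to 1.87 for KIF23. Of the 5294 genes, 2648 were higher in this pair (median 0.0004). Against C1, M2 gave a median of only 0.06 (SD 0.23), with 31.2% of the 16 lower, against 31.7% of the 5294 genes.

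**Figure D4:**
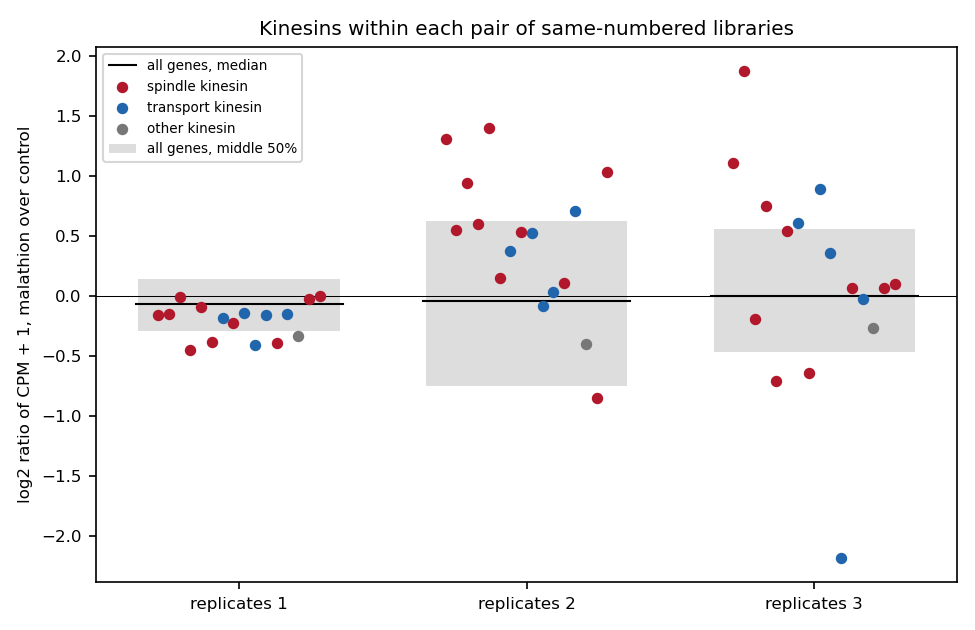
Log2 of the malathion level over the control level (each as CPM plus 1, vertical axis) for the 16 kinesins at a mean of at least 10 CPM over C1 and M1, within each pair of same-numbered libraries (horizontal axis). Grey boxes hold the middle 50% of 5294 genes and black lines their median; kinesin medians lie at −0.16, 0.53 and 0.08 in replicates 1, 2 and 3.

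Over 3 against 3 libraries, 0 of 29 kinesins passed the quasi-likelihood test of edgeR (adjusted p under 0.05), and 0% of the 10678 genes tested did. The filter on low counts left 29 of the 39 members. Those left out were the 6 with no counts and KIF9, KIF18B, KIF2B and KIFC3. An unadjusted p under 0.05 was found for 0 of 29 members, against 3.59% of all genes, and the smallest was 0.175, for KIF5B. DESeq2 and limma-voom called 0 of 29 members as well, with 0 at an unadjusted p under 0.05. They also called 0 of the 10678 genes, of which 227 and 110 had an unadjusted p under 0.05. Control and malathion values overlapped for each of the 29 in TMM-normalised CPM and in CPM, against 2.83% and 0.749% of all genes without overlap. Of the 12 spindle members tested, 10 had a log2 fold change above 0 and 2 below (median 0.29), of the 11 transport members 7 and 4 (median 0.27), and of the 6 others 2 and 4 (median −0.17). All genes had a median of −0.08, with 4974 above 0 and 5704 below. With library totals in place of TMM factors these splits became 7 to 5, 4 to 7 and 1 to 5, with medians of 0.08, −0.18 and −0.46, against −0.33 for all genes.

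The intervals were wide. The half-width of the 95% interval was 2.75 at the median over kinesins, on the log2 scale (1.91 for KIF2A to 3.56 for KIF5A), so changes of several fold in either direction were not detectable for any member. KIF20B had a log2 fold change of 0.63 ± 1.44 (SE, malathion minus control), KIF23 of 0.70 ± 1.16 and KIF20A of 0.49 ± 1.24. KIF4A, KIF18A and KIF2C stood at 0.30 ± 1.09, 0.27 ± 1.06 and 0.15 ± 1.09, and the pole motors KIF15, KIF11 and KIFC1 at 0.12 ± 1.01, 0.76 ± 1.40 and −0.71 ± 1.53. Among transport motors, KIF3A stood at 0.41 ± 0.925, KIF1B at 0.27 ± 1.00, KIF16B at 0.57 ± 0.965, KIF13A at 1.51 ± 1.46 and KIF5C at −0.55 ± 1.15. KIF21A stood at −0.66 ± 1.31. These values rest on TMM factors of 0.141 and 0.138 in the replicate 3 libraries, against 2.26 to 3.57 in the others, and so do not follow from the CPM above. In TMM-normalised CPM the family summed to 1812, 767 and 607 in the control and to 1683, 1697 and 732 in the malathion libraries.

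KIF5B had the lowest log2 fold change of the 29 members, −1.67 ± 1.17 (95% interval −4.17 to 0.83). In TMM-normalised CPM it stood at 18.9, 11.5 and 201 in the control and at 17.8, 15.7 and 39.3 in the malathion libraries. The log2 fold change was 0.68 without C3, 0.14 without both replicate 3 libraries and −0.38 with library totals. KIF13A had the highest value and stood at 5.13 TMM-normalised CPM in M3, on 30 counts, against 0 in C3 and 1.36 to 2.42 elsewhere. Its log2 fold change was 0.91 without M3, 0.40 without both replicate 3 libraries and 0.17 with library totals. Of the 29 members, 5 had their highest TMM-normalised CPM in a replicate 3 library (17.2%), against 34.8% of all genes tested.

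Genes that work with kinesins were taken from a list of 35, of which 32 were matched and 25 tested. None passed the test, 10 had a log2 fold change above 0 and 15 below (median −0.19), and 1 had an unadjusted p under 0.05, MAPRE2. Of the 10678 genes tested, 0% passed and 3.59% had an unadjusted p under 0.05. Over these genes, 4974 had a log2 fold change above 0 and 5704 below (median −0.08). The kinetochore kinesin CENPE (ENSSSCG00000023296) followed the spindle members, at 528, 324 and 1.56 CPM in C1, C2 and C3 and at 458, 617 and 2.01 CPM in M1, M2 and M3 (log2 fold change 0.47 ± 1.30, SE). RACGAP1 (ENSSSCG00000000217), which forms centralspindlin with KIF23, stood highest in C2, at 190.3 CPM against 49.4 to 61.0 CPM in C1, M1 and M2, and its replicate 3 values were 0.339 and 0.142 CPM (−0.77 ± 1.21). In C2 it was thus above its level in C1, whereas KIF23 was below.

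The microtubule bundler PRC1 (ENSSSCG00000037307), which recruits KIF4A to the midzone, stood at 1449, 327 and 226 CPM in the control and at 1465, 1249 and 3.66 CPM in the malathion libraries (−1.01 ± 1.70, and 0.13 without C3). TPX2 (ENSSSCG00000007235), a spindle assembly factor that binds KIF11 and KIF15, stood at 953, 456 and 322 CPM in the control and at 821, 814 and 5.62 CPM in the malathion libraries (−1.99 ± 1.72, but −0.15 without C3 and −0.08 with library totals). PRC1 and TPX2 were much less reduced in C3 than in M3, unlike KIF4A, which was low in both. KLC1 (ENSSSCG00000002547), a light chain that couples KIF5B to cargo, stood at 21.3, 26.7 and 50.5 CPM in the control and at 13.3, 24.4 and 5.01 CPM in the malathion libraries (−2.87 ± 1.48). Like KIF5B, it was far higher in C3 than in M3, and its log2 fold change was 1.05 without C3. KIFAP3 (ENSSSCG00000006282), the adaptor of the KIF3 motor, stood at 14.9 to 16.5 CPM in the replicate 1 and 2 libraries and at 0.645 and 0.0236 CPM in C3 and M3 (−0.18 ± 1.26).

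The partners with the smallest p in each direction were high in 1 library each. RHOT1 (ENSSSCG00000017735), which links motors to mitochondria, stood at 193 CPM in M3 and at 11.2 to 86.0 CPM elsewhere (3.62 ± 1.78, and −0.21 without that library). MAPRE2 (ENSSSCG00000003738), a protein of microtubule plus ends, stood at 1774 CPM in C3 and at 3.66 to 88.6 CPM elsewhere (−7.78 ± 3.28, and 0.09 without that library).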

How the data were processed

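Each library is 1 deposited table of raw read counts per Ensembl gene. Per the submitters' processing notes, the authors used STAR 2.5.3a, HTSeq 0.9.1 and DESeq2 1.20.0. Build, annotation and strand setting are not given in the sources used here, so no coordinates are printed. Per the labels' protocols, polyadenylated RNA was amplified by a modified Smart-seq2 method, which has no molecular identifiers. HTSeq's 5 rows of reads given to no gene (36.7% to 42.6% of a file) were left out. No pair of libraries agreed within sampling noise (chi-square over degrees of freedom at least 56.9).

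Symbols came from a gene name table (14857 identifiers named). Malathion was compared with control by edgeR 4.0.16 in R 4.3.3 (quasi-likelihood F test, TMM, filterByExpr with minimum count 10 and total 15, Benjamini-Hochberg over all genes kept), which was tested on simulated data: changed genes were recovered at a smaller spread between libraries than the one here, and were not recovered at the spread found here. Alternatives used DESeq2 1.42.0, limma 3.58.1 and the settings named in the closing section. Levels per length were planned but not computed, as no lengths were used. Same-numbered libraries deviated together from their group means (r = 0.466, 0.467 and 0.573 over genes for replicates 1, 2 and 3). Both replicate 3 libraries stood apart and deviations within a group cancel out, so these r values cannot show whether the numbers pair libraries. The main fit used the group only, and a replicate block was run as an alternative. Members and gene lists were chosen with earlier results of these data known. Named kinesins are the 8 with the highest median CPM, the 3 with the smallest p in each direction, and 10 fixed motors. Named partners are 6 fixed genes and the smallest p in each direction. The remaining members named in the text are described by ranges, counts or single values. The rule for named genes did not choose those given by single values, such as KIF22, KIF17, KIF9, KIF7 and KIF18B in C2.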

Additional observations from a re-analysis of the deposited data

How the results depend on the processing

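Kinesins called stayed at 0 under each of the 12 alternatives, and so did motor partners. All genes called were 60 without the filter on low counts and 0 to 3 when leaving out 1 library. The replicate block called 0 genes and 0 kinesins (KIF5B −0.62) and changed no call. The class medians, the family sum and the spindle share moved by less than the spread between replicates under every alternative run. This is a weak check, because that spread includes the replicate 3 libraries. It was 3.10 log2 units for the family sum and 17.3 percentage points for the spindle share. The family sum's log2 difference of 0.26 became 2.05 without M3. It turned sign when C3 (−1.52), M1 (−0.57) or M2 (−0.70) was left out. The transport median was −0.07 without C3 and −0.01 without M2. Of the 16 named kinesins, 8 kept the sign of their log2 fold change under all 12 alternatives, but not its size: leaving out 1 library gave 0.15 to 1.90 for KIF20B, 0.32 to 1.42 for KIF23, 0.00396 to 1.64 for KIF20A, 0.27 to 0.75 for KIF3A, 0.91 to 1.99 for KIF13A, 0.14 to 1.33 for KIF16B, −1.55 to −0.19 for KIF21A and −1.24 to −0.00452 for KIFC1. Of the others, it gave −0.14 to 1.14 for KIF4A, −0.11 to 0.90 for KIF18A, −0.33 to 0.81 for KIF2C, −0.29 to 0.89 for KIF15, −2.18 to 0.68 for KIF5B, −0.83 to 0.0478 for KIF5C, −0.78 to 1.06 for KIF1B, −0.0565 to 1.57 for CENPE, −0.74 to 0.38 for KIFAP3, −4.02 to 1.05 for KLC1, −1.29 to 0.28 for RACGAP1, −1.64 to 0.13 for PRC1, −0.21 to 4.60 for RHOT1 and −8.37 to 0.0939 for MAPRE2. With library totals the sign turned for KIF2C (−0.0960), KIF11 (−0.33), KIF1B (−0.18), KIFAP3 (0.0465) and PRC1 (0.44). It turned without both replicate 3 libraries for KIF5B (0.14), KIF11 (−0.12), KIF1B (−0.0118), KIFAP3 (0.31), TPX2 (0.34) and PRC1 (0.67), and for KIF15 with limma-voom (−0.0904) and the replicate block (−0.0388). The cause was not tested. None of these genes was called under any setting. The alternatives that scale to transcript length were not run, as no lengths were used. Counts of at most 3 in replicate 3 libraries limit the ratios of KIF22, KIF14, KIFC1 and KIF21A.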
